A study of Mus musculus with 18 samples.

Results

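The subunits of oxidative phosphorylation were followed in C2C12 cells, a mouse myoblast line that begins to turn into muscle cells when serum is lowered, after RNAi against STAC3. Genes were taken by symbol: those starting with Ndufa, Ndufb, Ndufc, Ndufs, Ndufv, Sdha, Sdhb, Sdhc, Sdhd, Uqcr, Cox4, Cox5, Cox6, Cox7, Cox8 or Atp5, without the muscle isoforms Cox6a2 and Cox7a1 and without assembly factors. The rule found 71 of the 13032 named genes of the authors' value table. Of these, 70 encode subunits: 33 of complex I, 3 of complex II, 7 of complex III, 11 of complex IV and 16 of complex V. The remaining gene, Ndufs5-ps, is a pseudogene and is given apart. No named probe was found for Sdha, Ndufs1, Cox4i2 or Cox8a. Each gene is represented by its brightest probe, by the mean of all arrays.

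Illumina bead arrays measured total RNA in 4 groups of samples. STAC3 RNAi cells at day 1 (n = 4) and control RNAi cells at day 1 (n = 4) were collected 48 h after transfection, after 24 h in differentiation medium with 2% serum. STAC3 RNAi cells at day 0 (n = 4) and control RNAi cells at day 0 (n = 3, replicates 2, 3 and 4) were collected 24 h after transfection in growth medium with 20% serum. The control RNAi has a high GC content. Only 1 RNAi against STAC3 and 1 cell line are named. The change of medium and the longer time since transfection cannot be told apart in any comparison of the days. Nothing says whether the replicates, called biological samples, were transfected separately. The p-values then measure only the spread between these samples, which may be technical.

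Oxidative phosphorylation is the work of 5 protein complexes of the inner mitochondrial membrane. Complexes I and II pass electrons from NADH and succinate to ubiquinone, complex III passes them on to cytochrome c, and complex IV passes them to oxygen. Complexes I, III and IV pump protons across the membrane, and complex V, the ATP synthase, uses their return flow to make ATP. Myoblasts are known to raise mitochondrial content and oxidative metabolism as they differentiate. All subunits described here are encoded in the nucleus.

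All 71 genes passed the filter on dim probes (detection p below 0.01 on at least 3 of 18 arrays). Uqcrfs1 was detected on 5 arrays, Cox8b on 10, Atp5k on 11 and Ndufb11 on 16, and every other member on all 18. The probes detected per array numbered 15146 to 16802, and array medians of the authors' log2 values lay between 7.19 and 7.194. Stac3 stood at 6.74, 6.74, 6.70 and 6.81 in STAC3 RNAi cells at day 1, against 7.53, 7.69, 7.52 and 7.97 in control cells. All STAC3 RNAi samples were under the detection level of 6.87, the value at which probes pass the detection p, so Stac3 was at least 1.75-fold lower at day 1 and at least 1.14-fold lower at day 0. Of the myoblast markers, 4 of the 5 in the table were detected (Myod1, Des, Cdh15 and Myog). The mean level over all 5, with the undetected one, was 9.18 to 9.56 in STAC3 RNAi cells and 9.81 to 10.2 in control cells at day 1. Of the endothelial, macrophage and neuron markers in the table, 0 of 3, 0 of 2 and 0 of 3 were detected, and of the adipocyte markers Lep was, as 1 of 2.

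At day 1 the subunit genes were lower in STAC3 RNAi cells across most complexes. In limma's fit over all probes, 37 of 70 fell and 2 rose (adjusted p below 0.05), where 17.8% of the 10146 genes tested fell and 19.9% rose. The median log2 fold change of the 70 was -0.23, or 14.8% lower, while that of all genes tested was 0.01. The estimate was negative for 62 subunits and positive for 8. For 32 subunits every STAC3 RNAi sample lay under every control sample, a pattern seen in 14.8% of genes, and for 1 subunit every one lay above, seen in 17%. The mean over all 70 genes was 11.06 ± 0.03 in STAC3 RNAi cells and 11.29 ± 0.04 in control cells (SD, n = 4 each).

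At day 0 the shift was small. Among the 70 subunits 5 rose and 3 fell in STAC3 RNAi cells, where 8.05% of the genes tested rose and 6.63% fell. The median log2 fold change was -0.03, and the means over the 70 genes were 11.11 ± 0.02 in STAC3 RNAi cells (SD, n = 4) and 11.14 ± 0.03 in control cells (SD, n = 3). All STAC3 RNAi samples lay above all controls for 9 subunits and under them for 8, against 15.2% and 14.1% of genes. These bulk values cannot tell fewer cells of a kind from less RNA per cell.

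**Figure D1:**
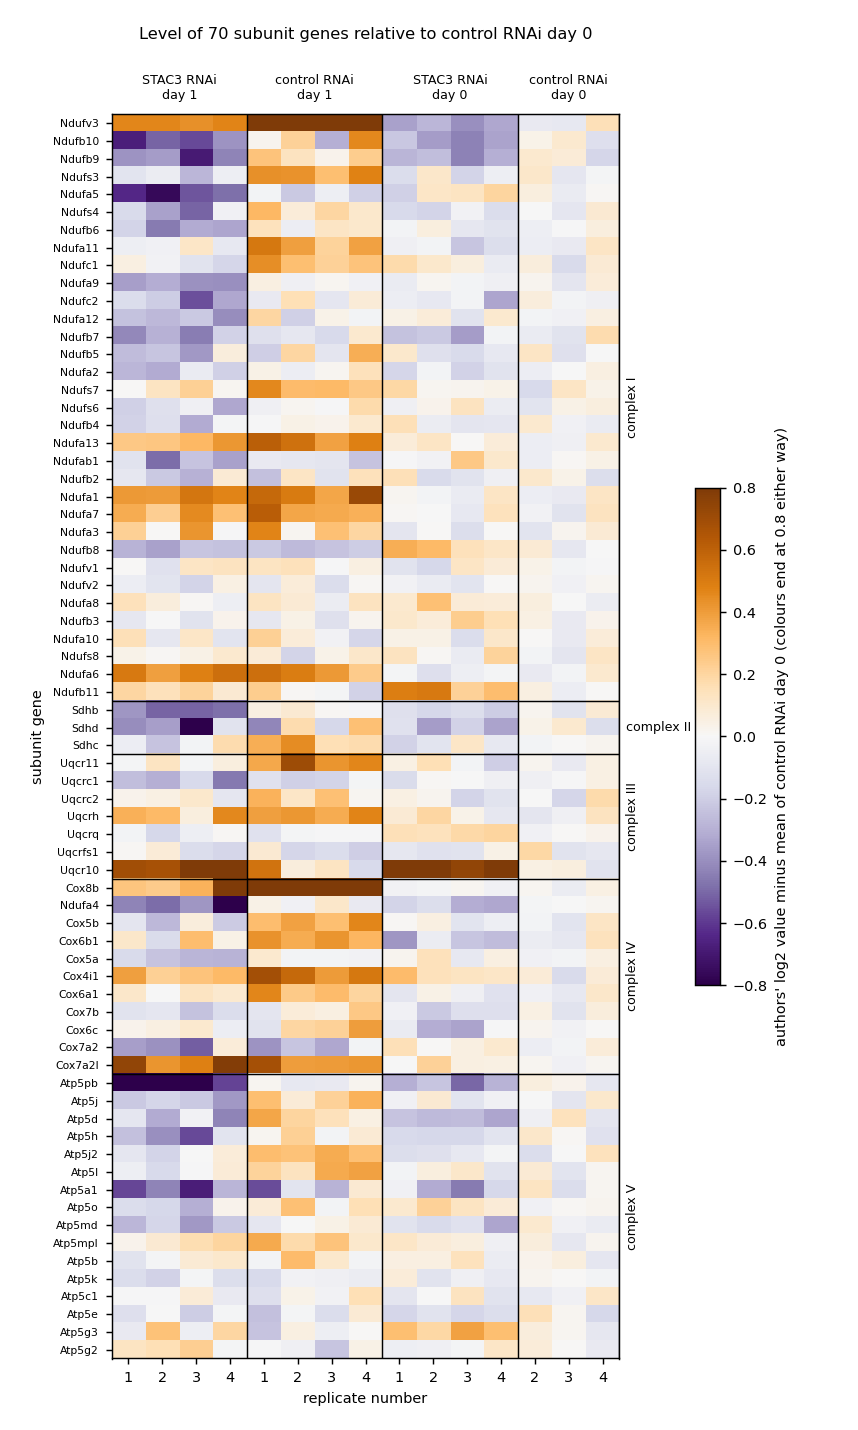
Level of each of the 70 subunit genes (rows, by complex) in each of the 15 samples (columns, by group and replicate number), as the authors' log2 value minus the mean of control RNAi day 0; colours end at 0.8 in either direction. At day 1 most complex I rows are pale or violet in STAC3 RNAi cells and pale or orange in control cells, and Uqcr10 is orange in all 8 STAC3 RNAi samples.

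The arrays fall into 2 sets. In the non-normalized table, 6 arrays carry the same names as in the value table and have a lowest intensity of 32.1 to 36.0. The names of the other 12 arrays, with a lowest intensity of 44.0 to 52.1, disagree between the tables. Both sets hold all 4 groups. The 3 repeat arrays are among the 6 and their partners among the 12, so the sets share samples and are not independent. Within the 12 arrays 37 subunits fell at day 1, 31 of them also in the fit of all samples, and the median log2 fold change was -0.25. Within the 6 arrays, with 2 samples of each group at day 1 and 1 at day 0, 8 fell and the median was -0.22. Those 8 were Atp5j, Atp5pb, Cox8b, Ndufa4, Ndufa5, Ndufv3, Sdhb and Uqcr11. They passed under every other setting on the value table in which they were tested, the mean over probes not counted. Cox8b was not tested where detection on every array was required. Of the 39 day 1 calls, 30 also passed with each sample left out in turn. At day 0 only the calls of Uqcr10 and Ndufb11 did so, of 8.

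**Figure D2:**
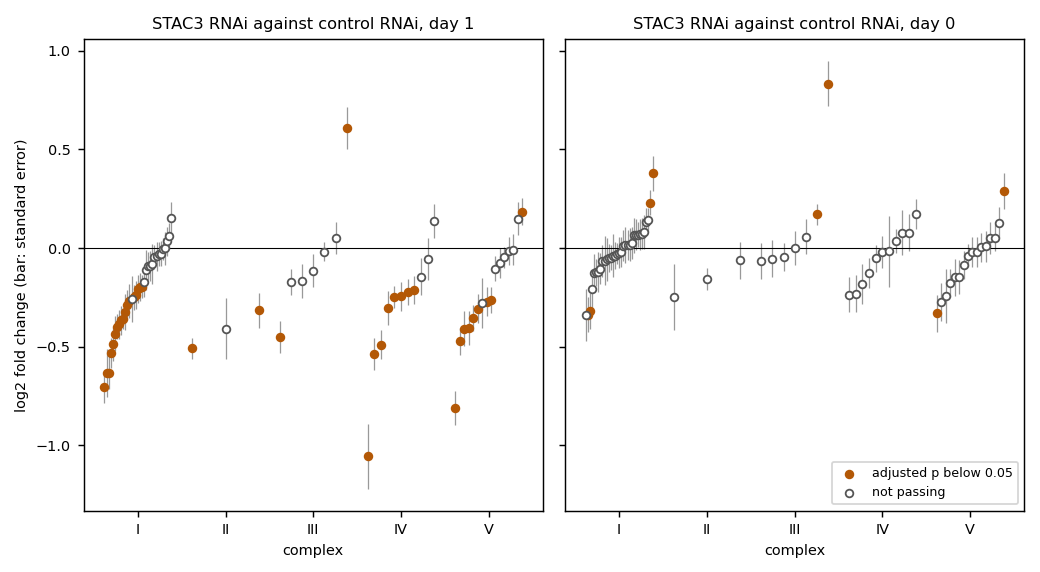
Log2 fold change of STAC3 RNAi against control RNAi for every subunit gene, day 1 on the left and day 0 on the right, ordered by size within each complex; bars are standard errors and filled points have an adjusted p below 0.05. At day 1 the filled points lie under 0 except Uqcr10 in complex III and Atp5g2 in complex V, and at day 0 there are 8 filled points on both sides of 0.

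Promoter sequences were set beside these calls, since several factors are known to bind the promoters of subunit genes: GABP through ETS motifs, NRF1, ERR alpha and YY1. RefSeq windows (GRCm38.p6) of 300 bases, from 250 before to 50 after the start, were found for 61 of the 70 subunit genes, and each motif was searched on both strands. The ETS motif CCGGAAG was in 16 of 61 subunit windows, or 26.2%, and in 9.93% of 27025 genes. The NRF1 motif, GCGCA and GCGC with any base between them, was in 15, or 24.6%, and in 5.19% of all genes. The YY1 motif AAGATGGC was in 10, or 16.4%, and in 3.19% of all. The ERR motif AAGGTCA was in 7, or 11.5%, and in 5.38% of all. By outcome at day 1, the ETS motif was in 11 of 33 windows of subunits that fell and in 5 of 28 of the others, NRF1 in 7 and 8, ERR in 2 and 5, and YY1 in 8 and 2. These are descriptions of the letters, and no test was made.

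The 150 bases before the start are printed for 6 genes, to set members that fell at day 1 (Ndufs3, Uqcr11, Atp5j, Atp5h) beside one that rose (Uqcr10) and one that did not pass (Atp5c1). They run 5′ to 3′ on the gene's strand, which is minus for all 6, and capitals mark the motifs on either strand. For Atp5j and Atp5c1, which have several windows, the one with the most motifs is shown. Ndufs3 (chr2:90904722-90904871), Uqcr11 (chr10:80406822-80406971) and Atp5h (chr11:115419920-115420069) hold an ETS motif, which Atp5h carries as its reverse complement CTTCCGG beside an NRF1 motif. Atp5j (chr16:84834977-84835126) holds a YY1 and an ETS motif and Atp5c1 (chr2:10080433-10080582) an NRF1 motif. Uqcr10 (chr11:4704345-4704494) holds none of the 4 in its window. The 6 genes are examples taken without a set rule. The printed members that fell all hold an ETS motif, while it was in only 11 of 33 windows of subunits that fell.
Ndufs3: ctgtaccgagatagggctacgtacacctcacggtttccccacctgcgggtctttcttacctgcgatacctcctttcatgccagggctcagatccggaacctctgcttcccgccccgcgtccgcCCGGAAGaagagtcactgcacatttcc
Uqcr11: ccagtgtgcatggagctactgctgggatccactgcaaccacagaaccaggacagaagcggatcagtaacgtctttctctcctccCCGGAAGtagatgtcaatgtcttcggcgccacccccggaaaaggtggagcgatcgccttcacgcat
Atp5h: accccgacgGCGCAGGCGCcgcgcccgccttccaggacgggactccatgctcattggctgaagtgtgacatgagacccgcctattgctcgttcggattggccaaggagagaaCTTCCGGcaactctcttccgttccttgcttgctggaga
Atp5j: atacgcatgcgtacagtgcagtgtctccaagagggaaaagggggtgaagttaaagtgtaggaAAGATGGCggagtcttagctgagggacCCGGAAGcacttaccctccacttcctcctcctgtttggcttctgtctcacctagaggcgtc
Atp5c1: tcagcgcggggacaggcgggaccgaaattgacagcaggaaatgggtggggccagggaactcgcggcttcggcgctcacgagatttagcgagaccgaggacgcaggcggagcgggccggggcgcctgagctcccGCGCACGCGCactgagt
Uqcr10: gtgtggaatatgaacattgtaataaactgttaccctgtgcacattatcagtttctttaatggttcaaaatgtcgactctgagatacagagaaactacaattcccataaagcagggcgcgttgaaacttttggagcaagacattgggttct

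Complex I, the NADH dehydrogenase, had 18 of 33 members lower and none higher in STAC3 RNAi cells at day 1, with a median log2 fold change of -0.21. Of its core subunits, which carry the flavin and iron-sulfur clusters or hold them in place, 2 of 5 fell (Ndufs3 and Ndufs7). Of the accessory subunits, 16 of 28 fell. The largest fall was that of Ndufv3, an accessory subunit of the NADH-oxidising part. Its levels were 11.78, 11.78, 11.75 and 11.79 in STAC3 RNAi cells, against 12.55, 12.48, 12.22 and 12.68 in control cells. The groups did not overlap, and the 4 STAC3 RNAi samples lay close together. Ndufv3 was 1.63-fold lower, a log2 fold change of -0.71 (SE 0.08, adjusted p = 7.83e-06). Its other 2 probes fell as well, by 0.64 and 0.53 on the log2 scale.

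Ndufb9 and Ndufb10, accessory subunits of the membrane arm, followed. Ndufb9 stood at 8.89, 8.92, 8.59 and 8.85 in STAC3 RNAi cells, against 9.55, 9.41, 9.31 and 9.51 in control cells (log2 fold change -0.63, SE 0.08, adjusted p = 3.26e-05). Ndufb10 stood at 8.62, 8.78, 8.73 and 8.91 in STAC3 RNAi cells, against 8.99 to 9.75 in control cells (log2 fold change -0.63, SE 0.12, adjusted p = 0.000808). Neither gene's groups overlapped, and within the 6 arrays neither passed (adjusted p = 0.0519 and 0.106). The core subunit Ndufs3, part of the arm that reaches into the matrix and here chosen after its values were seen, had levels of 11.02, 11.06, 10.84 and 11.08 in STAC3 RNAi cells, against 11.56, 11.55, 11.41 and 11.60 in control cells. It was 1.45-fold lower (log2 fold change -0.53, SE 0.07, adjusted p = 5.14e-05). Ndufa5, an accessory subunit of the same arm, read 10.89, 10.77, 10.99 and 11.05 in STAC3 RNAi cells, against 11.51, 11.31, 11.49 and 11.34 in control cells, or 1.4-fold lower (adjusted p = 0.00032).

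The other members of complex I that fell at day 1 were Ndufs4 (log2 fold change -0.43), Ndufb6 (-0.40), Ndufa11 (-0.39), Ndufc1 (-0.37), Ndufa9 (-0.36), Ndufc2 (-0.32), Ndufa12 (-0.29), Ndufb7 (-0.27), Ndufa2 (-0.25), Ndufs7 (-0.24), Ndufs6 (-0.21), Ndufb4 (-0.20) and Ndufa13 (-0.20). Ndufs4, an accessory subunit needed for a stable NADH-oxidising part, has 4 probes, and all passed in the same direction. The calls of Ndufb4, Ndufb7, Ndufs6, Ndufs7 and Ndufa13 were each lost when one or another sample was left out. Ndufv1, the core subunit that binds NADH, did not pass and differed little: 11.84, 11.72, 11.95 and 11.97 in STAC3 RNAi cells, against 11.96, 11.98, 11.82 and 11.88 in control cells (adjusted p = 0.713). The remaining 14 that did not pass had estimates between -0.26 (Ndufb5) and 0.15 (Ndufb11). For Ndufb8 the probe that stands for the gene did not pass (-0.05, adjusted p = 0.614) and its dimmer probe did (-0.25, adjusted p = 0.0152).

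At day 0, 2 of the 33 members of complex I fell and 2 rose, near the 6.63% and 8.05% of all genes tested. Ndufv3 stood at 10.97, 11.04, 10.92 and 10.99 in STAC3 RNAi cells, against 11.25, 11.24 and 11.47 in control cells (log2 fold change -0.34, SE 0.09, adjusted p = 0.0182). Ndufb9 was lower by a similar estimate (-0.32, adjusted p = 0.0294). Ndufb11 rose, with 7.45, 7.48, 7.18 and 7.26 in STAC3 RNAi cells, against 7.02, 6.92 and 6.97 in control cells (log2 fold change 0.38, SE 0.09, adjusted p = 0.0106), close to the detection level. Ndufb8 rose too (0.23, adjusted p = 0.027). The dimmer probes of Ndufb11 (0.13, adjusted p = 0.468) and Ndufb8 (0.04, adjusted p = 0.79) did not pass. In all 4 genes the groups did not overlap. Over complex I, all STAC3 RNAi samples lay under all controls for 3 genes and above them for 4. Of all genes tested, 14.1% and 15.2% showed these patterns. Without control replicate 4 the day 0 call of Ndufv3 was lost, and those of Ndufb8 and Ndufb9 were lost in 4 and 5 of the 15 fits that each left a sample out.

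Complex II, which is also the succinate dehydrogenase of the tricarboxylic acid cycle, was represented by 3 of its subunits, and 2 fell at day 1. Sdhb carries the iron-sulfur clusters. Its levels were 10.40, 10.27, 10.27 and 10.30 in STAC3 RNAi cells, against 10.83, 10.87, 10.79 and 10.77 in control cells. The groups were well apart, and Sdhb was 1.42-fold lower (log2 fold change -0.51, SE 0.05, adjusted p = 3.11e-06). A further probe gave -0.45, and another that was detected on only 3 arrays gave 0.02 and did not pass. Sdhc, a membrane anchor, was 1.25-fold lower (log2 fold change -0.32, adjusted p = 0.011) with overlapping groups, and did not pass within the 12 arrays (-0.27, adjusted p = 0.0947) or the 6 (-0.34, adjusted p = 0.103). The other anchor, Sdhd, had an estimate of -0.41 that did not pass (adjusted p = 0.0563), with 8.08, 8.13, 7.59 and 8.37 in STAC3 RNAi cells, against 8.07, 8.65, 8.32 and 8.77 in control cells. At day 0 none of the 3 passed. Sdhb lay at 10.57 to 10.66 in STAC3 RNAi cells and at 10.67 to 10.86 in control cells, with an adjusted p of 0.0882.

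Complex III, the cytochrome bc1 complex, had 1 of 7 members lower and 1 higher at day 1. These counts are near the shares of all genes tested, 17.8% lower and 19.9% higher. Uqcr10 and Uqcr11 are small accessory subunits. Uqcr10 stood at 12.81, 12.79, 12.96 and 12.92 in STAC3 RNAi cells at day 1, against 12.66, 12.18, 12.25 and 11.96 in control cells. At day 0 it stood at 12.99, 13.03, 12.86 and 12.93 in STAC3 RNAi cells, against 12.17, 12.18 and 12.01 in control cells. Every STAC3 RNAi sample lay above every control sample on both days, with control replicate 1 of day 1 the nearest. The rises were 1.52-fold at day 1 (log2 fold change 0.61, SE 0.11, adjusted p = 0.000401) and 1.78-fold at day 0 (0.83, SE 0.11, adjusted p = 0.000212). Its other probe rose by 0.56 at day 1 and 0.76 at day 0. Within the 12 arrays the day 1 estimate was 0.74 (adjusted p = 4.79e-05), and within the 6 arrays it was 0.38 and did not pass (adjusted p = 0.215). The day 0 estimates within the sets were 0.87 and 0.85, the second not passing (adjusted p = 0.249).

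Uqcr11 went the other way at day 1, with 12.71, 12.85, 12.71 and 12.79 in STAC3 RNAi cells, against 13.09, 13.43, 13.15 and 13.19 in control cells. It was 1.37-fold lower (log2 fold change -0.45, SE 0.08, adjusted p = 0.000457), and the groups did not overlap. At day 0 its means were 12.72 ± 0.15 in STAC3 RNAi cells (SD, n = 4) and 12.72 ± 0.06 in control cells (SD, n = 3). The other 5 members of complex III did not pass at day 1. Uqcrc1, which with Uqcrc2 forms the matrix side of the complex, had a mean of 10.84 ± 0.13 in STAC3 RNAi cells and 11.01 ± 0.08 in control cells (SD, n = 4 each, adjusted p = 0.0541). Uqcrfs1, the Rieske iron-sulfur protein, was near or under the detection level in most samples, from 6.72 to 7.11, and gives little to compare. Uqcrq, an accessory subunit, rose at day 0 by 0.17 (adjusted p = 0.0432), with dim values of 7.26 to 7.32 in STAC3 RNAi cells against 7.08 to 7.14 in control cells, a call lost in 10 of 15 fits with a sample left out.

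Complex IV, cytochrome c oxidase, had 8 of 11 members lower and none higher at day 1, with a median log2 fold change of -0.25. None of the 11 passed at day 0. Cox8b, an isoform of subunit 8 found in heart and skeletal muscle, showed the largest estimate. Its levels were 7.03, 7.01, 7.10 and 7.74 in STAC3 RNAi cells, against 8.34, 8.38, 7.74 and 8.63 in control cells. STAC3 RNAi replicate 4 and control replicate 3 met at 7.74, and the other samples were apart. Cox8b was 2.08-fold lower (log2 fold change -1.06, SE 0.17, adjusted p = 0.000157). At day 0 all 7 samples were under the detection level.

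Ndufa4, first assigned to complex I and now known as a subunit of complex IV, read 12.87, 12.81, 12.92 and 12.48 in STAC3 RNAi cells at day 1, against 13.34, 13.26, 13.41 and 13.23 in control cells (log2 fold change -0.54, SE 0.08, adjusted p = 0.000124). Cox5b, which surrounds the catalytic core with other nuclear-encoded subunits, read 13.18, 13.003, 13.34 and 13.06 in STAC3 RNAi cells, against 13.57, 13.66, 13.57 and 13.74 in control cells (log2 fold change -0.49, SE 0.07, adjusted p = 0.000118). In both genes the groups did not overlap. The second probe of Cox5b gave -0.55. The remaining calls were smaller: Cox6b1 (-0.30), Cox5a (-0.25), Cox4i1 (-0.25), Cox6a1 (-0.22) and Cox7b (-0.21). Cox4i1, the common isoform of subunit 4, had means of 13.11 ± 0.07 in STAC3 RNAi cells and 13.36 ± 0.12 in control cells (SD, n = 4 each), with no overlap, and lost its call without control replicate 1 of day 1. Cox6b1 lost its call in 1 of 15 such fits and Cox7b in 3. Cox7a2, the isoform of subunit 7a found in most tissues, did not pass (-0.05, adjusted p = 0.747). Neither did Cox7a2l, which helps to join complexes III and IV (0.14, adjusted p = 0.258), nor Cox6c (-0.14).

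The muscle isoforms that the rule leaves out went with Cox8b. Cox7a1 stood at 7.47, 7.39, 7.54 and 7.17 in STAC3 RNAi cells at day 1, against 8.58, 8.34, 8.16 and 8.53 in control cells, or 2.02-fold lower (log2 fold change -1.01, SE 0.09, adjusted p = 7.74e-07). Cox6a2 stood at 6.90, 6.99, 6.83 and 7.004 in STAC3 RNAi cells, against 7.84, 7.58, 7.47 and 7.47 in control cells (log2 fold change -0.66, SE 0.07, adjusted p = 6.81e-06). Neither gene's groups overlapped. Muscle markers fell on the same arrays: Myog, a regulator of early differentiation, by 1.47 and Ckm, muscle creatine kinase, by 1.49 on the log2 scale. Whether the subunits follow the extent of differentiation was not tested.

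**Figure D3:**
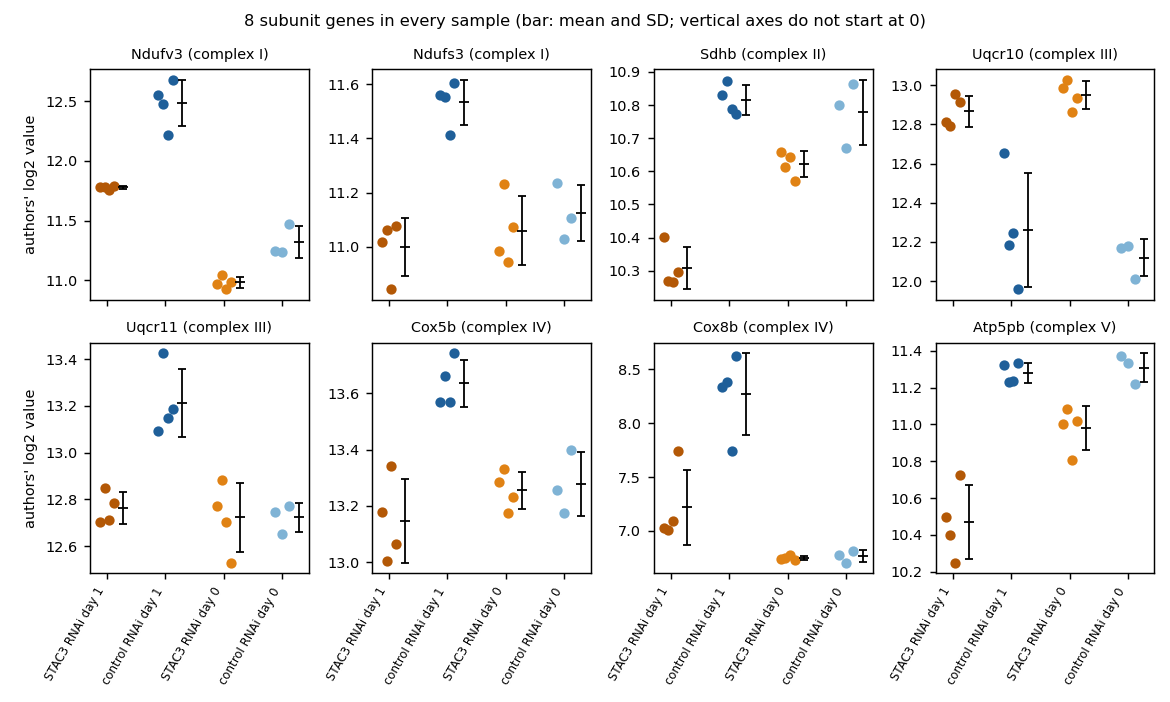
The authors' log2 value of 8 subunit genes in every sample, with the mean and SD of each group beside its points; vertical axes differ between panels and do not start at 0. Ndufv3, Ndufs3, Uqcr11, Cox5b and Cox8b are highest in control cells at day 1, Sdhb and Atp5pb are lowest in STAC3 RNAi cells at day 1, and Uqcr10 is high in STAC3 RNAi cells on both days.

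Complex V, the ATP synthase, had 8 of 16 members lower and 1 higher at day 1. Its parts hold few genes each, and no difference between their counts was tested. All 4 subunits of the peripheral stalk, which holds the catalytic head still against the turning rotor, fell. In the membrane part 3 of 5 fell. In the F1 part, which includes the catalytic head, 1 of 5 fell, near the 17.8% of all genes tested. Of the 2 genes found for the rotating c ring, 1 rose. Atp5pb, the b subunit of the stalk, stood at 10.50, 10.40, 10.25 and 10.73 in STAC3 RNAi cells, against 11.32, 11.23, 11.24 and 11.33 in control cells. At day 0 it stood at 11.005, 11.08, 10.81 and 11.02 in STAC3 RNAi cells, against 11.37, 11.33 and 11.22 in control cells. The groups did not overlap on either day. Atp5pb was 1.76-fold lower at day 1 (log2 fold change -0.81, SE 0.09, adjusted p = 3.87e-06) and 1.26-fold lower at day 0 (-0.33, SE 0.09, adjusted p = 0.0285), though 4 of 15 fits with a sample left out lost the day 0 call. Its other probes gave -0.90 and -0.30 at day 1.

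Among the other stalk subunits, Atp5j (coupling factor 6) read 12.85, 12.89, 12.85 and 12.70 in STAC3 RNAi cells at day 1, against 13.36, 13.15, 13.28 and 13.40 in control cells, or 1.39-fold lower (log2 fold change -0.47, SE 0.07, adjusted p = 7.32e-05). A second probe of Atp5j did not move with it (0.02, adjusted p = 0.849). Atp5h (subunit d) was lower by a log2 fold change of -0.40, without overlap, and Atp5o (the stalk's link to the head) by -0.27, with overlap. In the F1 part, Atp5d fell by 0.41 (adjusted p = 0.00208). The catalytic subunit gene Atp5b had means of 14.65 ± 0.10 in STAC3 RNAi cells and 14.73 ± 0.15 in control cells (SD, n = 4 each, adjusted p = 0.501), and its partner Atp5a1 had an estimate of -0.28 that did not pass (adjusted p = 0.11). Atp5c1 and Atp5e each had an estimate of -0.01. In the membrane part Atp5j2 (-0.35), Atp5l (-0.31) and Atp5md (-0.27) fell, and Atp5mpl (-0.10) and Atp5k (-0.05) did not pass.

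The 2 c ring genes found lay on the other side. Atp5g2 read 10.20, 10.22, 10.30 and 10.05 in STAC3 RNAi cells at day 1, against 10.06, 10.02, 9.84 and 10.11 in control cells, with overlap (log2 fold change 0.18, adjusted p = 0.05, just under the threshold), and its call was lost in 12 of 15 fits with a sample left out. Atp5g3 rose at day 0, with 14.59, 14.49, 14.68 and 14.59 in STAC3 RNAi cells, against 14.37, 14.31 and 14.21 in control cells (log2 fold change 0.29, SE 0.09, adjusted p = 0.0465). That call was lost in 8 of 15 such fits, and at day 1 the estimate of 0.15 did not pass (adjusted p = 0.197). Atpif1, which inhibits the synthase and is not counted as a subunit, rose on both days. At day 1 it stood at 13.24, 13.21, 13.39 and 13.35 in STAC3 RNAi cells, against 13.07, 12.89, 12.83 and 12.60 in control cells (log2 fold change 0.45, SE 0.08, adjusted p = 0.000416), and was higher by 0.29 at day 0 (adjusted p = 0.039).

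Genes with several probes allow the day 1 falls to be read again on other probes. Of the 37 members that fell, 16 have at least 1 other probe that passed the filter, 22 probes in all. Of these 22, 20 had a negative estimate and 17 passed in the same direction. The pseudogene Ndufs5-ps, which may share sequence with its parent gene, was 1.53-fold lower at day 1 (log2 fold change -0.61, adjusted p = 0.00057), and the probe cannot be assigned further here.

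Between day 1 and day 0, more subunit genes fell than rose in STAC3 RNAi cells, and more rose than fell in control cells. In STAC3 RNAi cells 9 of 70 rose and 18 fell, where 24.2% of genes tested rose and 21.1% fell, with a median log2 change of -0.08. In control cells 22 rose and 1 fell, where 20.7% of genes rose and 19.1% fell, with a median of 0.07. Complex IV had 3 rises and 3 falls in STAC3 RNAi cells, and 6 rises and no fall in control cells. Complex I had 5 rises and 9 falls in STAC3 RNAi cells, and 9 rises and 1 fall in control cells. Complex V had no rise and 3 falls in STAC3 RNAi cells, against 4 rises in control cells, complex III had 1 rise and 2 falls against 2 rises, and complex II had 1 fall against 1 rise. All day 1 samples lay above all day 0 samples for 7 subunits in STAC3 RNAi cells (21.9% of genes) and for 21 in control cells (23.1%). They lay under them for 16 subunits in STAC3 RNAi cells (19.1%) and for 3 in control cells (21.8%). These comparisons share their samples with those of RNAi against control.

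**Figure D4:**
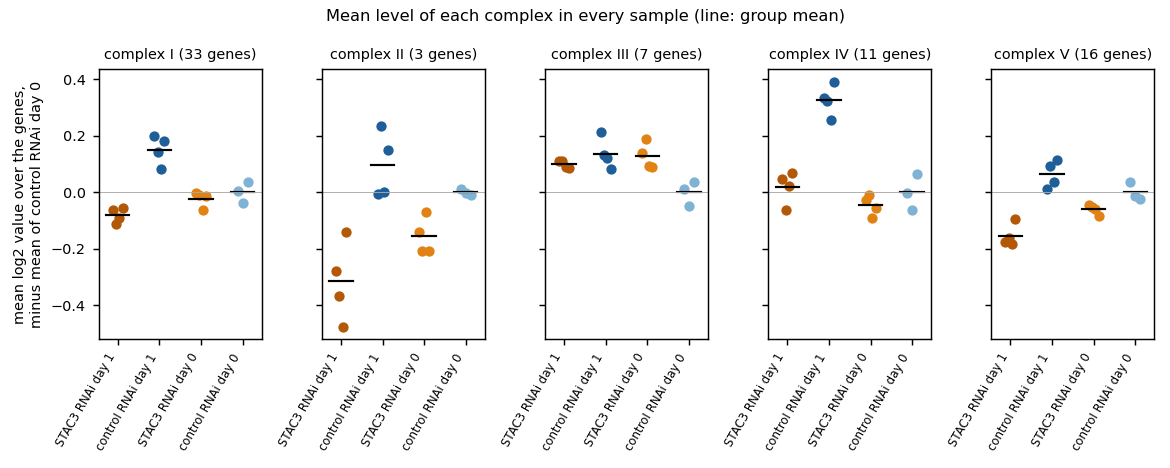
Mean log2 value over the genes of each complex in every sample, minus the mean of control RNAi day 0; points are samples and lines are group means. In complex IV the 4 control samples of day 1 lie above all others, in complexes I and V the STAC3 RNAi samples of day 1 have the lowest group mean, and in complex III the control samples of day 0 lie lowest.

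Ndufv3 rose between the days in both kinds of cell. It averaged 11.78 ± 0.02 at day 1 and 10.98 ± 0.05 at day 0 in STAC3 RNAi cells (SD, n = 4 each, log2 change 0.80). In control cells it averaged 12.48 ± 0.19 at day 1 (SD, n = 4) and 11.32 ± 0.13 at day 0 (SD, n = 3), a log2 change of 1.16. Cox8b came up from under the detection level, by at least 1.27-fold in STAC3 RNAi cells and at least 2.64-fold in control cells. Ndufs3, Cox5b and Uqcr11 had estimates of -0.06, -0.11 and 0.04 in STAC3 RNAi cells, none of which passed, while in control cells they rose by 0.41, 0.36 and 0.49. Cox4i1 likewise had 0.12 in STAC3 RNAi cells, which did not pass, and rose by 0.54 in control cells. For Sdhb, Atp5pb and Ndufa5 the change lay on the other side: they fell by 0.31, 0.51 and 0.67 in STAC3 RNAi cells, and in control cells the estimates of 0.04, -0.03 and -0.12 did not pass.

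Other members rose in differentiation medium in both. Ndufa1 rose by 0.44 in STAC3 RNAi cells and 0.54 in control cells, Ndufa6 by 0.53 and 0.42, Ndufa7 by 0.31 and 0.42, and Ndufa13 by 0.24 and 0.51. These are accessory subunits of complex I, and at day 1 all but Ndufa13 differed between STAC3 RNAi and control cells by estimates that did not pass. Uqcrh, the hinge protein of complex III, rose by 0.24 in STAC3 RNAi cells and 0.41 in control cells, and Cox7a2l by 0.53 and 0.47. Ndufb8 fell by 0.51 in STAC3 RNAi cells and 0.23 in control cells, although its dimmer probe rose by 0.23 in control cells, so its direction there depends on the probe. Cox7a2 (-0.37), Ndufa4 (-0.29), Cox5a (-0.27), Uqcrc1 (-0.25) and Uqcrq (-0.23) fell in STAC3 RNAi cells, and their changes in control cells, from -0.24 to 0.01, did not pass.

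The difference of the RNAi effect between the days was tested in the same fit. It was lower at day 1 than at day 0 for 13 of 70 subunits and higher for none, where 2.7% of genes tested were lower and 2.77% higher, and the median over the 70 was -0.18. The 13 were Ndufa5 (-0.55), Ndufs3 (-0.47), Ndufc1 (-0.44), Ndufb6 (-0.36) and Ndufa9 (-0.33) of complex I, Sdhb (-0.35) of complex II, Uqcr11 (-0.45) of complex III, Cox8b (-1.04), Cox5b (-0.47) and Cox4i1 (-0.42) of complex IV, and Atp5pb (-0.48), Atp5j (-0.45) and Atp5o (-0.40) of complex V. Other kept probes also passed for Cox5b (-0.60), Ndufc1 (-0.57) and Atp5pb (-0.61), whose dimmest probe (-0.01) did not. No other probe passed for Ndufa5 (-0.10), Atp5j (-0.04), Ndufb6 (-0.38), Atp5o (-0.38 and -0.12) or Sdhb (-0.29 and 0.07). The count of 13 turned on single samples. Without control replicate 3 of day 0 it was 0, without control replicate 2 of day 0 or STAC3 RNAi replicate 2 of day 1 it was 5, and in the other 12 fits with a sample left out it was 6 to 12. Within the 12 arrays 9 passed, and within the 6 arrays none did, with medians of -0.18 and -0.12.

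Genes around the complexes were counted in the same way at day 1, where 17.8% of all genes tested fell and 19.9% rose. Of 18 genes for carriers of electrons, metabolites or ions and for the synthesis of ubiquinone, 8 fell and 2 rose, with a median of -0.19. Cycs, cytochrome c, stood at 10.86, 10.86, 10.84 and 11.004 in STAC3 RNAi cells, against 11.61, 11.77, 11.67 and 11.71 in control cells, or 1.74-fold lower (adjusted p = 3.52e-08). Cyc1, cytochrome c1, is itself part of complex III but does not carry a symbol of the rule, and it was 1.49-fold lower (adjusted p = 9.63e-05). Etfa, an electron carrier of fatty acid oxidation, rose by 0.22. Of 36 assembly factors tested, 18 fell and 2 rose, with a median of -0.18. Cox17, a copper chaperone of complex IV, was 1.93-fold lower, with 11.89, 11.93, 12.13 and 11.79 in STAC3 RNAi cells, against 12.97, 12.87, 12.87 and 12.83 in control cells (adjusted p = 2.92e-07). Cox15, needed to make heme A, was 1.84-fold lower at day 1 and already 1.63-fold lower at day 0, and Cox18, which inserts a complex IV subunit into the membrane, was 1.3-fold higher at day 1 and 1.66-fold higher at day 0.

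Of 15 genes of the tricarboxylic acid cycle and pyruvate dehydrogenase, 6 fell and 1 rose at day 1, with a median of -0.16. The shares of all genes tested were 17.8% and 19.9%. Pdhb, a pyruvate dehydrogenase subunit, was 1.81-fold lower (9.28, 9.16, 9.01 and 9.28 in STAC3 RNAi cells, against 10.06, 10.06, 9.97 and 10.06 in control cells), and Suclg2, a succinyl-CoA ligase subunit, rose by 0.23. Of 72 mitochondrial ribosomal proteins tested, 26 fell and 6 rose, with a median of -0.12, and from day 0 to day 1 they numbered 46 falls in STAC3 RNAi cells and 26 in control cells, with 3 rises in each. Of all genes tested, 21.1% fell and 24.2% rose between the days in STAC3 RNAi cells, and 19.1% fell and 20.7% rose in control cells. Mrps24 was 2.99-fold lower at day 1 and 2.49-fold lower at day 0, with 10.60 ± 0.14 in STAC3 RNAi cells and 12.18 ± 0.12 in control cells at day 1 (SD, n = 4 each). Mrpl36 rose by 0.58 at day 1 and 0.55 at day 0. At day 0 each of these 4 lists had fewer falls than at day 1, and so had all genes tested. Of the latter, 6.63% fell and 8.05% rose at day 0. Rises in the lists numbered from none to 8. Of the carriers 1 fell (Vdac2, -0.47) and none rose, and of the assembly factors 4 fell and 3 rose. In the cycle 1 gene fell and 1 rose, and 5 ribosomal proteins fell and 8 rose.

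Of 15 regulators of mitochondrial gene expression, 3 fell and 4 rose at day 1, where 17.8% of all genes tested fell and 19.9% rose, and 3 fell and 3 rose at day 0, where 6.63% fell and 8.05% rose. The day 1 counts are near those shares. Ppargc1b, a coactivator of mitochondrial genes, stood at 8.14, 8.28, 8.21 and 8.32 in STAC3 RNAi cells at day 1, against 9.08, 9.42, 9.05 and 9.37 in control cells (log2 fold change -0.99, SE 0.09, adjusted p = 5.31e-07). At day 0 it was lower by 0.50 (adjusted p = 0.0021). Esrra, which encodes ERR alpha, fell by 0.33 and Gabpa, the ETS subunit of GABP, by 0.30. Ppard, a receptor for fatty acids, rose by 0.64, and Pprc1, another coactivator of the family, rose by 0.43 at day 1 and 0.45 at day 0. Whether any of these bears on the subunit genes was not tested.

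**Figure D5:**
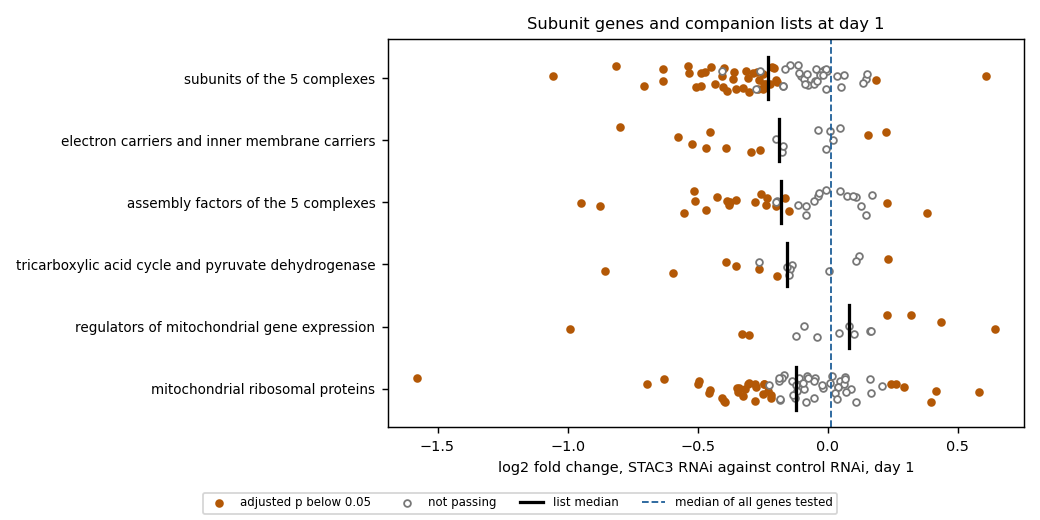
Log2 fold change of STAC3 RNAi against control RNAi at day 1 for the 70 subunits and 5 companion lists, one point per gene, with the list median as a black bar and the median of all genes tested as a dashed line. The medians of the subunits (-0.23), carriers (-0.19), assembly factors (-0.18), cycle genes (-0.16) and ribosomal proteins (-0.12) lie left of the dashed line, and that of the regulators (0.08) lies right of it.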

How the data were processed

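RNA of 15 biological samples of C2C12 cells was measured on 18 Illumina bead arrays. The deposited non-normalized table gives a bead intensity and a detection p-value for 45281 probes per array, per the file headers. Log2 values of 24538 probes stand in the authors' value table. Per the submitters' processing notes it was made with lumi, in a version and with settings not given in the sources used here. Values of the 3 repeat arrays were averaged with their partners', so that a sample counts once. In the value table each repeat correlates best with its named partner (r of 0.9949, 0.9955 and 0.9956), while in the non-normalized table, whose column names disagree for 12 of 18 arrays, the partner ranks 12th, 4th and 17th, so the value table was used. Detection p-values served only for the filter, counted over all arrays without column names. The value at which probes pass it, 6.87, was read on the 6 arrays whose names agree.

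The filter kept 18408 probes, those detected (p-value under 0.01) on 3 or more arrays, which cover 10146 named genes. The 4 group means were estimated in limma 3.58.1 (R 4.3.3), and p-values were adjusted by Benjamini-Hochberg across these 18408. An adjusted value under 0.05 is a pass, and "rose" and "fell" mean a pass. The script was tested on simulated data. Fold changes of dim probes may be smaller on the authors' scale than on the intensity scale, which was not measured.

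Named members are the 3 largest passing changes per complex and RNAi comparison, the largest in the other comparisons, members that pass against their complex, and a preset list; other passing members are listed to account for all, with Ndufs3 given in full after its values were seen. Members, lists and rules were chosen with earlier results of these data known. With 3 or 4 arrays per group, small differences are measured with low precision. The alternatives were no filter or a stricter one, a replicate or array-set block, each array set alone, quantile normalization, array weights, repeats left out, the mean over probes, each sample left out and the non-normalized table by column name. Promoter windows are from RefSeq (GRCm38.p6), which gave 61 of 70 members, and some members were not found.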

Additional observations from a re-analysis of the deposited data

Results flagged for a closer look

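Of 102 groups of 4 samples looked at over 34 named members, 6 hold a sample far from the others by Dixon's criterion, and chance flags about 1 in 20. Control RNAi replicate 1 of day 1 stood apart in 4 of them: Cox5a at 13.3182, Cox7a2l at 11.3484, Ndufa7 at 12.4094 and Uqcrq at 7.0014, the last below its group and the others above. That array is one of the 6 with lower lowest intensity. STAC3 RNAi replicate 4 of day 1 was high for Cox8b at 7.74, and STAC3 RNAi replicate 1 of day 0 was high for Cox4i1 at 13.1196.

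For 13 members the RNAi effect differed between the days by the interaction test, each lower at day 1. The differences on the log2 scale (with limma's adjusted p) were Cox8b -1.04 (0.024), Ndufa5 -0.55 (0.018), Atp5pb -0.48 (0.0402), Cox5b -0.47 (0.0237), Ndufs3 -0.47 (0.0229), Atp5j -0.45 (0.0179), Uqcr11 -0.45 (0.0402), Ndufc1 -0.44 (0.0316), Cox4i1 -0.42 (0.0342), Atp5o -0.40 (0.0441), Ndufb6 -0.36 (0.0413), Sdhb -0.35 (0.0173) and Ndufa9 -0.33 (0.0156). None of the 13 passed without control RNAi replicate 3 of day 0.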

How the results depend on the processing

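The 37 falls at day 1 numbered 37 to 40 under the alternatives run on the value table over both array sets, and 33 to 38 with a sample left out. Other left-out ranges were 1 to 2 for rises at day 1, 2 to 5 rises and 1 to 5 falls at day 0, 17 to 22 rises and 0 to 2 falls between days in control cells, 7 to 10 rises and 15 to 19 falls in STAC3 RNAi cells, and 0 to 12 for the difference. Rises at day 1 were 1 in place of 2 with no filter, with detection on every array, with the replicate block, with the array-set block and within the 12 arrays, where Atp5g2 no longer passed. At day 0 detection on every array left 3 rises, where Ndufb11 was not tested and Uqcrq did not pass, and falls were 5 with the replicate block, the array-set block or array weights and 6 within the 12 arrays, against 3. Falls between days in control cells were 2 with array weights and 0 with the mean over probes. Within the 6 arrays, with fewer samples, day 1 gave 0 rises and 8 falls, day 0 gave 0 and 0, control cells 2 rises between days, STAC3 RNAi cells 3 rises and 4 falls, and the difference 0. The cause of the other changes was not tested.

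With the replicate number as a block, the difference gave 12 members and day 1 gave 37 falls. Whether the numbers pair the samples is not settled, and the main fit did not pair them. Same-numbered deviations correlate at 0.0752, 0.199 and 0.492 at day 0 (replicates 2, 3 and 4). At day 1 they correlate at 0.392, -0.0541, 0.24 and 0.371 (replicates 1 to 4). Differently numbered samples were not compared, so these values cannot decide it.

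The non-normalized table by column name gave 0 passing members in every comparison. There 13 estimates turned: at day 0 Atp5pb 0.187, Ndufb11 -0.395, Ndufb9 0.126 and Uqcr10 -0.244; at day 1 Ndufa4 0.000517; between days in control cells Atp5j -0.0133 and Uqcr11 -0.111 and in STAC3 RNAi cells Ndufb11 0.359; for the difference Cox4i1 0.25, Cox5b 0.0385, Cox8b 0.436, Uqcr11 0.267 and Cox7a1 0.37. Its names conflict with the repeat arrays. Over single genes, medians and settings, 4566 values were counted as unchanged, 289 lost and 40 gained a pass, and 7 medians moved. For a gene, unchanged means the same side of the threshold, and a turn of direction was looked for only where the main fit passed. The count can therefore hold genes whose estimate changed sign without passing. For a median, unchanged means a shift smaller than the spread between samples.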
